A study of Rattus norvegicus with 8 samples.

Results

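The matrix metalloproteinases (MMPs) and their inhibitors, the TIMPs, were examined in rat annulus fibrosus cells (AFCs) under cyclic mechanical stretch (CMS). The members were 10 genes fixed by symbol, namely Mmp2, Mmp3, Mmp9, Mmp13, Mmp14, Mmp19 and Timp1 to Timp4. Of these, 9 had a row among the 31699 rows of the deposited table, and no row carried the symbol Timp2. MMPs are zinc-dependent endopeptidases that are made as inactive proenzymes and cut collagens, proteoglycans and other matrix proteins once the propeptide is removed. TIMPs bind active MMPs and block them. In the annulus fibrosus, the collagen-rich outer ring of the intervertebral disc, the balance of these enzymes and inhibitors is known as a determinant of matrix turnover.

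AFCs are primary cells from Sprague Dawley rats, and the tissue of 8 rats was pooled for each isolation. Cells of passage 3 were exposed for 24 h to lentivirus, 20 infectious units per cell, carrying either the control vector pLVX-shRNA-Puro (Lv-Ctrl) or pLVX-shRNA-Puro-Piezo1, which encodes a short hairpin RNA against the mechanosensitive channel Piezo1 (Lv-Piezo1). Both groups were then stretched at 20% elongation and 0.5 Hz for 36 h. RNA-seq was performed on 4 samples of each group, which the study describes as separate in vitro repeats. By its methods, cells of 1 isolation given the different treatments counted as 1 repeat, so the groups may be matched by isolation. The sample labels do not say which samples share an isolation. Samples without stretch or without virus were not analysed here. The comparison asks which members differed between stretched cells with the Piezo1 hairpin and stretched cells with the empty vector.

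The transcript of the target went against the labels. Piezo1 measured 31.1, 33.0, 26.7 and 29.5 TPM in replicates 1 to 4 of Lv-Ctrl, and 38.1, 37.7, 40.2 and 41.4 TPM in replicates 1 to 4 of Lv-Piezo1. Its mean was 30.1 ± 2.67 TPM and 39.4 ± 1.75 TPM, respectively (SD, n = 4), and the log2 fold change of 0.38 (standard error 0.07, limma adjusted p = 8.6e-04) is a rise, whereas a hairpin is meant to lower its target. The study reports a separate check in AFCs that found the hairpin effective, and its methods list Piezo1 among the western blot targets. The values here are RNA of the sequenced samples only. The names Lv-Ctrl and Lv-Piezo1 therefore stand throughout for the samples labelled so, and every direction given is that of the labels.

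The unit is TPM, a transcript abundance scaled by transcript length and by the total of the sample, so all samples sum to the same total. TPM carry no depth. Each SD given is the spread between the 4 samples of a group. Each standard error is that of the limma fit, which also draws on the spread of the other tested genes. The comparison used log2(TPM + 1), a scale that understates changes of low genes, in limma over the 13103 genes with a mean of at least 1 TPM. A gene passed the test at an adjusted p below 0.05, and it was called where the absolute log2 fold change was also at least 1. The median log2 fold change of all tested genes was 0.14, and it was -0.02 after median-ratio scaling of the samples. Higher genes made up 64.1% of the called genes as deposited, 51.4% with median-ratio scaling and 48.8% with quantile normalization. The 13 mitochondrially encoded protein genes took 6.87% to 7.74% of all TPM in Lv-Ctrl and 5.69% to 6.16% in Lv-Piezo1, and the part of this in the results was not tested. Annulus and tendon fibroblast markers were present, with 10 of 11 tested and a summed level of 7015 to 7897 TPM in Lv-Ctrl and 10916 to 11657 TPM in Lv-Piezo1, while Tnmd averaged 0 and 0.020 TPM. Of the 10 tested, 7 were higher and 3 lower (Dcn, Fmod and Mkx), against 41.9% and 16.3% of all tested genes. Comp, among the 7, averaged 0.738 TPM in Lv-Ctrl and entered the test only through Lv-Piezo1. Most of the sum came from Col1a1 and Col1a2. In bulk RNA, fewer cells of a type and less RNA per cell cannot be told apart.

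In the samples labelled Lv-Piezo1, the collagenase Mmp13 and the stromelysin Mmp3 fell the most among the members, Mmp2 and Mmp19 fell by less, Mmp9 rose from a low level, and Timp1 and Timp3 rose. Mmp14 did not pass the test, and the rise of Timp1 did not pass it after median-ratio scaling. Of the 8 tested members, 4 were lower at an adjusted p below 0.05 (Mmp2, Mmp3, Mmp13 and Mmp19), against 16.3% of all tested genes, and 3 were higher (Mmp9, Timp1 and Timp3), against 41.9% of all tested genes. With the fold change threshold, 2 members were called lower (Mmp3 and Mmp13), where the background was 2.76%, and 1 was called higher (Mmp9), where it was 4.91%. The groups did not overlap for the same 4 lower and 3 higher members, while 14.5% of all tested genes were lower and 39.8% were higher without overlap. Timp4 was below the limit for testing.

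**Figure D1:**
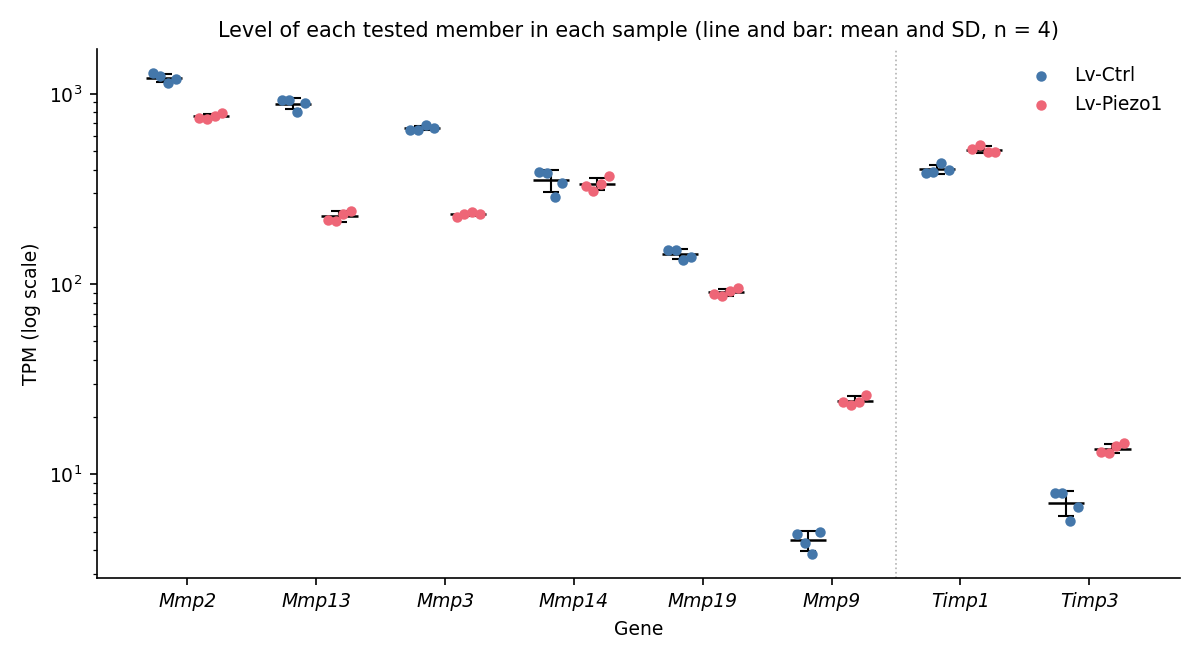
TPM on a log axis of the 8 tested members in each sample, Lv-Ctrl in blue and Lv-Piezo1 in red, with the mean and SD of each group (n = 4). Mmp13 lies between 806 and 929 TPM in Lv-Ctrl and between 214 and 244 TPM in Lv-Piezo1, Mmp14 overlaps between the groups, and Mmp9 is the member with the largest rise.

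Mmp13 (ENSRNOG00000008478) encodes collagenase 3, which cleaves fibrillar collagen and is known for its part in cartilage matrix breakdown. It measured 929, 924, 806 and 894 TPM in replicates 1 to 4 of Lv-Ctrl and 217, 214, 234 and 244 TPM in those of Lv-Piezo1. The lowest Lv-Ctrl sample thus lay far above the highest Lv-Piezo1 sample. The mean went from 888 ± 57.3 to 227 ± 14.3 TPM (SD, n = 4 each), a level 3.91-fold lower. The log2 fold change was -1.96 (standard error 0.06, limma adjusted p = 1.4e-08), the largest fall among the members, and no sample of one group reached the other. The exact permutation p, two-sided, was 0.0286 for each of the 7 members that passed, and 4 samples against 4 allow none smaller.

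Mmp3 (ENSRNOG00000032626) encodes stromelysin 1, an enzyme with many matrix substrates that also activates other proMMPs. It had 643, 648, 683 and 662 TPM in Lv-Ctrl and 225, 233, 238 and 233 TPM in Lv-Piezo1. The groups were tight and separate. The mean fell from 659 ± 17.9 to 232 ± 5.33 TPM (SD, n = 4 each), 2.84-fold lower, with a log2 fold change of -1.501 (standard error 0.03, limma adjusted p = 1.5e-09). Mmp13 lost more than Mmp3: the TPM of Mmp13 relative to Mmp3 was 1.18 to 1.44 in Lv-Ctrl and 0.918 to 1.05 in Lv-Piezo1, a ratio that does not depend on the scaling of a sample.

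Mmp10, which is no member but encodes stromelysin 2, the closest relative of Mmp3, had 17.1, 18.7, 20.15 and 18.9 TPM in Lv-Ctrl and 4.21, 4.33, 4.13 and 4.52 TPM in Lv-Piezo1. Its log2 fold change was -1.89 (standard error 0.06, limma adjusted p = 2.1e-08). Reads that fit Mmp3 and Mmp10 alike may have been divided between them, and how the authors handled such reads was not given in the sources used here. The Mmp10 level relative to Mmp3 was 0.0265 to 0.0295 in Lv-Ctrl and 0.0174 to 0.0194 in Lv-Piezo1, so the pair did not fall in one fixed proportion.

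Mmp13, Mmp3 and Mmp10 are neighbours. In RefSeq assembly GRCr8, 10 Mmp genes follow each other without another protein-coding gene between them, in the order Mmp13, Mmp12, Mmp1b, Mmp3, Mmp1, Mmp10, Mmp8, Mmp27, Mmp20 and Mmp7. Of these 10 genes, 3 were tested and all 3 were called lower, against 2.76% of all tested genes. The run was drawn outward from Mmp3, and Mmp3 and Mmp13 are members already described, so this count is no separate evidence. The other 7 stayed below 1 TPM in every sample, with a highest value of 0.33 TPM for Mmp12, and 4 of them were listed at 0 in all samples. Dcun1d5, the protein-coding gene next to Mmp13, had 79.6 ± 1.46 TPM in Lv-Ctrl and 70.6 ± 1.31 TPM in Lv-Piezo1 (SD, n = 4 each), with a log2 fold change of -0.17 (standard error 0.03, limma adjusted p = 0.0011). On the far side, Tmem123, which is separated from Mmp7 by 1 gene without a row of its name, had 50.1 ± 3.72 and 52.3 ± 2.95 TPM (SD, n = 4 each; log2 fold change 0.06, limma adjusted p = 0.44).

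**Figure D2:**
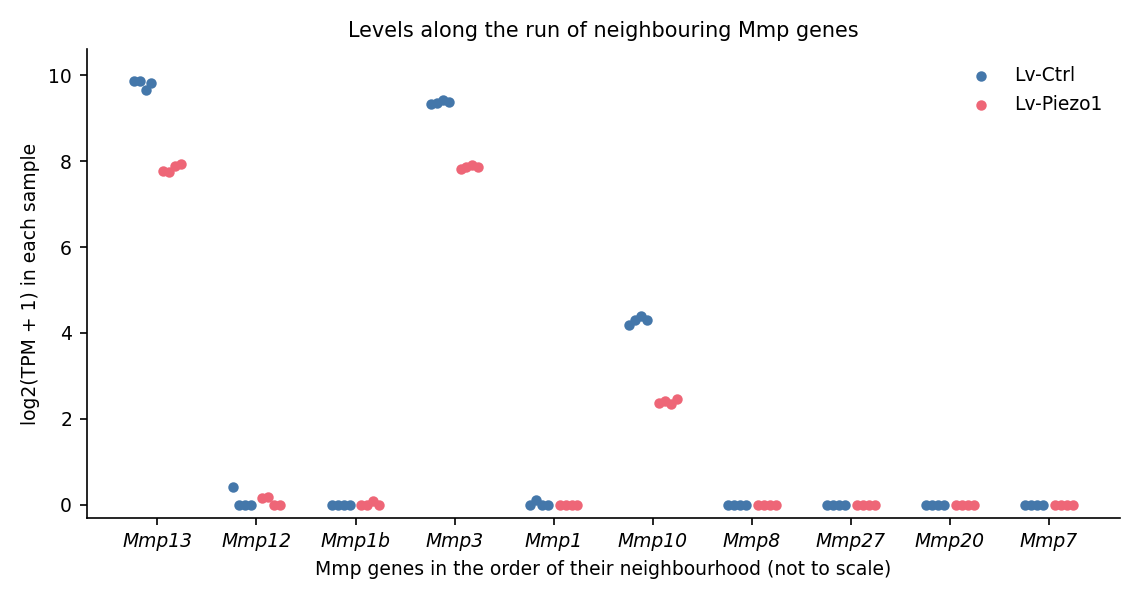
log2(TPM + 1) in each sample for the 10 neighbouring Mmp genes in their RefSeq order, not to scale, with Lv-Ctrl in blue and Lv-Piezo1 in red (n = 4 each). Mmp13, Mmp3 and Mmp10 are lower in all samples labelled Lv-Piezo1, and the 7 other genes lie at or near 0 in both groups.

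Promoter sequences were available for 6 of the 10 members and for all 10 genes of this run (RefSeq, GRCr8). The AP-1 heptamer TGAGTCA, or TGACTCA on the other strand, is a known element of several MMP promoters, at which dimers of Jun and Fos proteins bind. It was found in the 250 bases before the start of 6 of the 10 genes in the run (Mmp13, Mmp12, Mmp3, Mmp1, Mmp10 and Mmp7), and in 4.05% of all 33469 promoters of the same length. None of the 7 Mmp genes outside the run with a promoter entry held it, and none of the 4 Timp genes did. Only these exact letters were sought, so a variant of the heptamer would be missed. Mmp2, Mmp9, Mmp14 and Mmp19 had no promoter entry and were not searched. The 100 bases before the start of the 3 genes that fell, and of Mmp12 and Timp1 for comparison, are shown 5′ to 3′ with the heptamer in capitals.
Mmp13, chr8:12782729-12782828, plus strand: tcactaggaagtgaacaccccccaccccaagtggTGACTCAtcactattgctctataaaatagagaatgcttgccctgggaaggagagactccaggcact
Mmp3, chr8:12925181-12925280, plus strand: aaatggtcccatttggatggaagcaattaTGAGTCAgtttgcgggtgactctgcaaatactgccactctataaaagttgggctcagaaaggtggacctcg
Mmp10, chr8:12974607-12974706, plus strand: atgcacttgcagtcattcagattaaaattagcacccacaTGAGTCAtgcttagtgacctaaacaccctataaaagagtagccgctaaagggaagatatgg
Mmp12, chr8:12866552-12866651, plus strand: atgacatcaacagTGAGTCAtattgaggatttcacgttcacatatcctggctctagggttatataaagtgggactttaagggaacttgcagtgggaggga
Timp1, chrX:3771123-3771222, minus strand: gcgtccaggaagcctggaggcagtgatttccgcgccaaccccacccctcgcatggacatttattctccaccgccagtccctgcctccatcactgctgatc

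The heptamer began 66 bases before the start in Mmp13, 71 bases in Mmp3 and 61 bases in Mmp10, each with the letters TATAAA after it, at 47, 32 and 33 bases. Mmp12, Mmp1 and Mmp7 held the heptamer too, 87, 84 and 80 bases before the start. They had at most 0.33 TPM in any sample, so the heptamer was also present in genes with next to no transcript. A match of letters is a description of the sequence and does not show that a factor was bound. The 6 Jun and Fos family genes of the list of MMP inducers were picked with their values in view. Jun went from 95.8 to 58.6 TPM (log2 fold change -0.70, limma adjusted p = 4.4e-06) and Fos from 106 to 85.7 TPM (log2 fold change -0.31, limma adjusted p = 0.0053), while Junb, Jund and Fosl2 did not pass the test. Fosl1 went from 64.6 to 73.2 TPM (log2 fold change 0.18, limma adjusted p = 0.0082), but its log2 fold change was 0.0036 after median-ratio scaling, where those of Jun and Fos were -0.88 and -0.48. With that scaling Fosl2, Jund and Junb had -0.39, -0.36 and -0.17.

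The gelatinases Mmp2 (ENSRNOG00000016695) and Mmp9 (ENSRNOG00000017539), which degrade denatured collagen and type IV collagen, moved in opposite directions. Mmp2 was the most abundant member in both groups. It measured 1281, 1247, 1142 and 1193 TPM in Lv-Ctrl and 744, 739, 763 and 796 TPM in Lv-Piezo1, with no overlap. The mean fell from 1216 ± 61.35 to 760.4 ± 25.6 TPM (SD, n = 4 each), 1.60-fold lower, with a log2 fold change of -0.68 (standard error 0.04, limma adjusted p = 1.5e-06), which is below the fold change threshold.

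Mmp9 was a minor transcript in Lv-Ctrl, at 4.84, 4.34, 3.83 and 5.01 TPM, and had 23.99, 23.25, 24.2 and 26.3 TPM in Lv-Piezo1. The 2 sets of values were clearly apart. The mean rose from 4.505 ± 0.532 to 24.4 ± 1.31 TPM (SD, n = 4 each), 5.42-fold higher, with a log2 fold change of 2.21 (standard error 0.08, limma adjusted p = 3.6e-08). With a pseudocount of 0.1 the log2 fold change was 2.42. As deposited this was the largest change of any member in size, but after median-ratio scaling it was 2.05 and that of Mmp13 was -2.14. Mmp9 remained far less abundant than Mmp2: the level relative to Mmp2 was 0.00336 to 0.00420 in Lv-Ctrl and 0.0315 to 0.0330 in Lv-Piezo1.

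Mmp9 is a well-known product of neutrophils, macrophages and osteoclasts, so markers of those cells were read beside it. All 6 neutrophil markers stayed below 1 TPM in every sample, with a sum of 0 to 0.68 TPM in Lv-Ctrl and 0.090 to 0.17 TPM in Lv-Piezo1, and Elane and S100a9 averaged 0 in both groups. Of 8 macrophage markers, 2 were tested and both were higher, as were 41.9% of all tested genes. Cd68, a lysosomal protein, averaged 0.955 TPM in Lv-Ctrl and 12.3 TPM in Lv-Piezo1, and so entered the test only through Lv-Piezo1. The other was Cd14, with 20.9 and 25.8 TPM. The sum of the list was 21.8 to 23.55 TPM against 37.1 to 42.3 TPM, with Adgre1 and Cd163 at 0 and Ptprc at 0 and 0.0025 TPM. Of 5 osteoclast markers, Calcr and Ocstamp averaged 0, Acp5 had 13.1 and 17.4 TPM, and Ctsk, a collagen-degrading protease that fibroblasts also express, fell from 220.1 to 73.3 TPM (log2 fold change -1.57, limma adjusted p = 2.7e-09). Endothelial markers were below 1 TPM in every sample for 6 of 6 genes. Of 12 smooth muscle and pericyte markers, 10 were tested, 6 were called higher and 2 lower, against 4.91% and 2.76% of all tested genes. The sum of this list was 828 to 863 TPM in Lv-Ctrl and 4604 to 4773 TPM in Lv-Piezo1. Most of the sum in Lv-Piezo1 came from Tagln (means of 219 and 2730 TPM) and Acta2 (51.2 and 1344 TPM). Cnn1, Mcam, Myh11 and Des were also called higher. Those called lower were Abcc9, at means of 73.7 and 12.3 TPM, and Kcnj8, at 326 and 39.1 TPM. Rgs5 was near 0 (0.163 and 0.258 TPM). The part of these markers in the changes of the members was not tested.

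The 3 tested genes closest to Mmp9 in profile, by the root mean square difference of log2(TPM + 1) over the 8 samples after centring each gene on its own mean, were Frzb (0.0747), Adarb1 (0.087) and Vcl (0.0891), out of 9060 genes with a symbol and a mean of at least 5 TPM. Frzb, a secreted Wnt antagonist, went from 5.46 to 31.3 TPM. Vcl, which encodes the focal adhesion protein vinculin, went from 86.7 to 368 TPM. With 2 groups of samples this likeness mostly says that the size of the step was alike.

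Mmp14 (ENSRNOG00000010947) encodes MT1-MMP, the membrane-anchored enzyme that cleaves collagen at the cell surface and, with TIMP2 as an adaptor, activates proMMP2. It had 388, 385, 288 and 341 TPM in Lv-Ctrl and 329, 309, 337 and 369 TPM in Lv-Piezo1. The Lv-Piezo1 samples all fell within the range of the Lv-Ctrl samples, which were the more scattered. The means were 351 ± 46.8 and 336 ± 25.2 TPM (SD, n = 4 each), with a log2 fold change of -0.05 (standard error 0.10, limma adjusted p = 0.65) and a 95% interval of -0.27 to 0.16. After median-ratio scaling the log2 fold change was -0.23 and passed the test (limma adjusted p = 0.023). Relative to Mmp2, Mmp14 was higher in every sample labelled Lv-Piezo1, at 0.418 to 0.464 against 0.252 to 0.309 in Lv-Ctrl.

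Mmp19 (ENSRNOG00000006778) encodes a secreted MMP of broad substrate range that many resting tissues express. It had 151, 151, 134 and 139.5 TPM in Lv-Ctrl and 88.5, 86.5, 92.2 and 95.3 TPM in Lv-Piezo1, again with no overlap. The mean fell from 144 ± 8.67 to 90.7 ± 3.92 TPM (SD, n = 4 each), 1.59-fold lower, with a log2 fold change of -0.66 (standard error 0.05, limma adjusted p = 5.2e-06). The size of its fall was close to that of Mmp2.

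Of the inhibitors, Timp1 and Timp3 passed the test as higher, though Timp1 did not pass after median-ratio scaling. Timp1 (ENSRNOG00000010208), a secreted inhibitor of most soluble MMPs, measured 382, 390.0, 434 and 399.5 TPM in Lv-Ctrl and 513, 537, 493 and 492 TPM in Lv-Piezo1. All Lv-Piezo1 samples lay above all Lv-Ctrl samples, and the step was small beside those of Mmp3 and Mmp13. The mean rose from 402 ± 23.0 to 509 ± 21.2 TPM (SD, n = 4 each), 1.27-fold higher, with a log2 fold change of 0.34 (standard error 0.05, limma adjusted p = 2.2e-04). After median-ratio scaling it was 0.16 and no longer passed the test (limma adjusted p = 0.081). In RefSeq GRCr8, Timp1 overlaps Syn1, which had 11.5 ± 0.658 TPM in Lv-Ctrl and 9.59 ± 0.776 TPM in Lv-Piezo1 (SD, n = 4 each).

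Timp3 (ENSRNOG00000004303) is bound to the matrix and inhibits ADAM and ADAMTS proteases besides MMPs. It had 7.98, 7.97, 5.72 and 6.78 TPM in Lv-Ctrl and 13.1, 12.9, 14.1 and 14.55 TPM in Lv-Piezo1, without overlap. The mean rose from 7.11 ± 1.09 to 13.7 ± 0.777 TPM (SD, n = 4 each), 1.92-fold higher, with a log2 fold change of 0.86 (standard error 0.10, limma adjusted p = 6.6e-05). Syn3, the gene that overlaps Timp3, was at most 0.10 TPM in any sample. Timp4, the inhibitor known from heart and a few other tissues, was at 0, 0, 0.03 and 0.02 TPM in Lv-Ctrl and 0.03, 0.02, 0.03 and 0.06 TPM in Lv-Piezo1, and Syn2, which overlaps it, was listed at 0.

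Timp2 was not analysed here, since no row has its symbol. In RefSeq GRCr8 the gene Cep295nl overlaps Timp2, and the row named Cep295nl, chosen after its values were seen, was one of high level: 1054 ± 82.2 TPM in Lv-Ctrl and 1076 ± 10.4 TPM in Lv-Piezo1 (SD, n = 4 each). Its log2 fold change was 0.03 (standard error 0.05, limma adjusted p = 0.61). Without the counting rules and the strand of the libraries, reads of overlapping genes cannot be told apart, and whether this row holds reads of Timp2 was not tested. Ratios of Mmp2 and Mmp14 to Timp2 were therefore not computed, and those to Timp1 were set in their place after the values were seen.

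The order of the levels changed between the groups. In Lv-Ctrl it was Mmp2, Mmp13, Mmp3, Timp1, Mmp14, Mmp19, Timp3, Mmp9 and Timp4, and the neighbours Timp1 and Mmp14 overlapped in range. In Lv-Piezo1 it was Mmp2, Timp1, Mmp14, Mmp3, Mmp13, Mmp19, Mmp9, Timp3 and Timp4, and Mmp3 and Mmp13 overlapped. Timp1 thus went from below both Mmp13 and Mmp3 to above them.

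The summed TPM of the 6 MMP members was 3398, 3360, 3056 and 3235 in Lv-Ctrl and 1627, 1604, 1688 and 1763 in Lv-Piezo1, a mean of 3262 ± 154 against 1671 ± 71.2 (SD, n = 4 each). Mmp13 held 27.2% ± 0.579 of this sum in Lv-Ctrl and 13.6% ± 0.302 in Lv-Piezo1. The share of Mmp3 went from 20.3% ± 1.54 to 13.9% ± 0.544, that of Mmp2 from 37.3% ± 0.358 to 45.5% ± 0.455, and that of Mmp14 from 10.7% ± 0.955 to 20.1% ± 0.699. Mmp9 held 0.138% ± 0.0134 and 1.46% ± 0.0264 (SD, n = 4 each for all shares). The share of Mmp19 went from 4.41% to 5.43%. The sum of the 6 MMP members was thus smaller in Lv-Piezo1. Within it the shares of Mmp2, Mmp14, Mmp19 and Mmp9 were larger, although Mmp2 and Mmp19 fell in TPM. The 17 other Mmp genes with a row summed to 158 to 168 TPM in Lv-Ctrl and 177 to 191 TPM in Lv-Piezo1.

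The summed TPM of Timp1, Timp3 and Timp4 was 409 ± 22.0 in Lv-Ctrl and 523 ± 20.5 in Lv-Piezo1 (SD, n = 4 each), of which Timp1 made up 98.2% and 97.4%. The ratio of the MMP sum to this TIMP sum was 8.71, 8.44, 6.94 and 7.96 in Lv-Ctrl and 3.09, 2.91, 3.33 and 3.48 in Lv-Piezo1, a mean 2.501-fold lower, without overlap. It leaves out Timp2. The ratio of Mmp13 to Timp1 was 1.85 to 2.43 and then 0.398 to 0.495, that of Mmp3 to Timp1 was 1.57 to 1.68 and then 0.433 to 0.483, and that of Mmp2 to Timp1 was 2.63 to 3.35 and then 1.38 to 1.62. Only the ratio of Mmp14 to Timp1 overlapped among those of these 4 enzymes, with 0.663 to 1.01 in Lv-Ctrl and 0.575 to 0.750 in Lv-Piezo1. These ratios are of transcripts and say nothing of active enzyme.

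**Figure D3:**
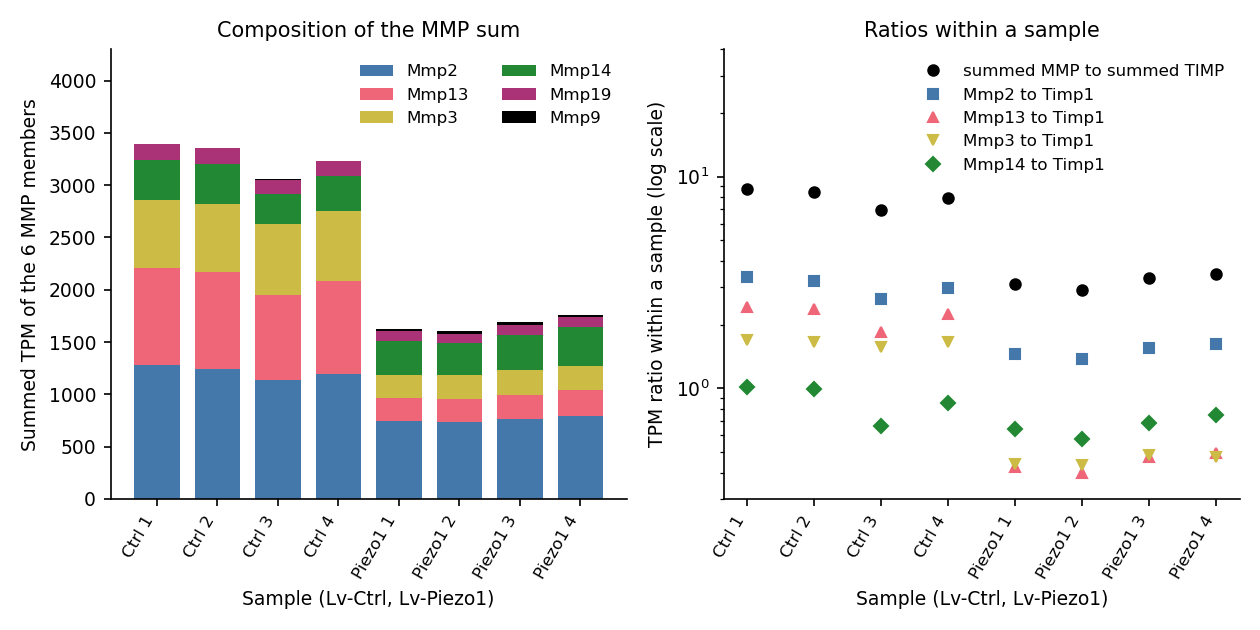
Left, stacked TPM of the 6 MMP members in each of the 8 samples. Right, the ratio of the MMP sum to the TIMP sum (without Timp2) and of 4 MMPs to Timp1 within each sample, on a log axis. The MMP sum is 3056 to 3398 in Lv-Ctrl and 1604 to 1763 in Lv-Piezo1, and all ratios but that of Mmp14 are separate between the groups.

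Outside the members, 17 further Mmp genes had a row and 9 of them were tested. Mmp10, described above, and Mmp11 were lower at an adjusted p below 0.05, and Mmp17, Mmp23 and Mmp25 were higher, while Mmp15, Mmp16, Mmp24 and Mmp28 did not pass. Only Mmp10 was called, although Mmp25 was called too with a pseudocount of 0.1, at a log2 fold change of 1.31. Mmp25 was below 1 TPM in every Lv-Ctrl sample. It entered the test only through its Lv-Piezo1 level and could be counted only as a rise. Mmp11, or stromelysin 3, went from 20.7 ± 1.99 to 16.1 ± 0.488 TPM (log2 fold change -0.34). Mmp23 went from 76.8 ± 5.68 to 108.5 ± 4.72 TPM (log2 fold change 0.50), Mmp17, which encodes the membrane-anchored MT4-MMP, from 6.25 ± 0.574 to 9.49 ± 0.595 TPM (log2 fold change 0.54), and Mmp25, or MT6-MMP, from 0.578 ± 0.0866 to 1.59 ± 0.291 TPM (log2 fold change 0.71; SD, n = 4 each). The highest limma adjusted p of these 4 genes was 0.0020. Of those that did not pass, Mmp24 had means of 26.5 and 28.8 TPM, Mmp28 of 5.76 and 6.05 TPM, Mmp15 of 4.04 and 3.93 TPM and Mmp16 of 4.12 and 3.79 TPM. Mmp15 and Mmp16 were lower after median-ratio scaling, with log2 fold changes of -0.17 (limma adjusted p = 0.041) and -0.23 (limma adjusted p = 0.027). Over all 15 tested Mmp genes, members included, 6 were lower and 4 higher at an adjusted p below 0.05. The shares over all tested genes were 16.3% and 41.9%, and the 4 higher include Mmp25.

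**Figure D4:**
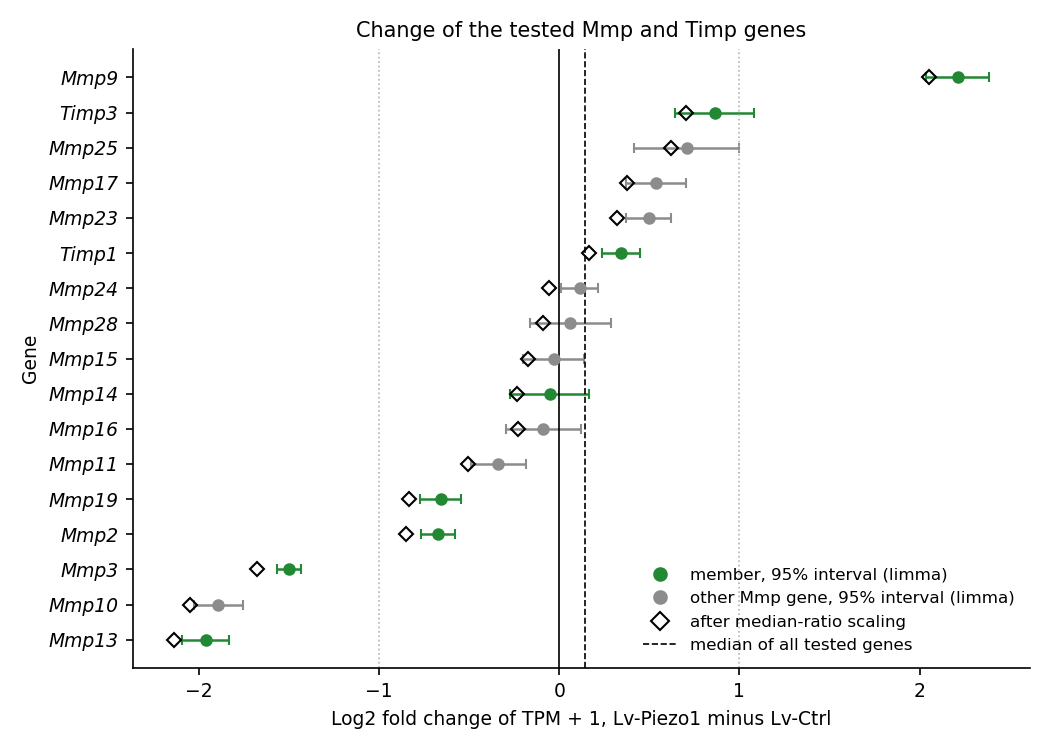
Log2 fold change of TPM + 1 (Lv-Piezo1 minus Lv-Ctrl) with its 95% interval from limma for the tested members (green) and other Mmp genes (grey), n = 4 samples a group, with open diamonds after median-ratio scaling. Mmp13 at -1.96, Mmp10 at -1.89 and Mmp3 at -1.501 lie at the low end, Mmp9 at 2.21 at the high end, the dashed line marks the median of all tested genes at 0.14 and the dotted lines mark changes of 1.

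Genes that act on the members were read from lists of the pathway. Among 11 tested genes of proMMP activation and cell-surface partners, 6 were higher and 0 lower at an adjusted p below 0.05, with a median log2 fold change of 0.17. Over all tested genes, 41.9% were higher and 16.3% lower at that threshold, and 4.91% were called higher. Of the 11 listed genes, 2 were called. Pcsk6, a proprotein convertase, went from 3.82 ± 0.317 to 11.995 ± 0.618 TPM. The integrin subunit Itgb3 went from 0.253 ± 0.111 to 1.81 ± 0.433 TPM (SD, n = 4 each). Itgb3 was below 1 TPM in every Lv-Ctrl sample. It entered the test only through its Lv-Piezo1 level and could be counted only as a rise. Bsg, which encodes the MMP inducer basigin and was picked with its values in view, went from 1292 to 1842 TPM (log2 fold change 0.51, limma adjusted p = 2.0e-06). Furin, the convertase that removes the propeptide of Mmp14, had 71.3 and 69.9 TPM and did not pass the test (limma adjusted p = 0.68).

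Among 8 tested genes of other inhibitors and of clearance, 2 were higher and 3 lower, with a median log2 fold change of -0.17. The shares over all tested genes were 41.9% and 16.3%. Serpine2 (protease nexin 1), the gene called lower, went from 16425 ± 378 to 4074 ± 128 TPM (SD, n = 4 each), with a log2 fold change of -2.01 (limma adjusted p = 3.4e-10). Reck, a membrane-anchored inhibitor of several MMPs, had 66.45 and 59.3 TPM and did not pass the test (limma adjusted p = 0.20).

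Of 20 tested inducers and transcription factors of MMP genes, 11 were higher and 3 lower (Jun, Fos and Egr1), with a median log2 fold change of 0.16. None of them reached the fold change threshold. For each list in this paragraph, the shares over all tested genes were 41.9% higher and 16.3% lower. With the fold change threshold they were 4.91% and 2.76%. The cytokine Il6 went from 8.70 to 17.3 TPM and the interleukin 1 receptor Il1r1 from 12.005 to 20.4 TPM, both picked after their values were seen. Of 8 sheddases and aggrecanases, targets of the Timp3 protein, 3 were higher and 1 was lower, with a median of -0.01. Of 14 tested matrix substrates, 11 were higher and 3 lower, with a median of 0.44, and the called genes were Fn1 (fibronectin), from 1940 ± 242 to 4908 ± 297 TPM, and Dcn (decorin), from 1456 ± 69.3 to 519 ± 14.9 TPM (SD, n = 4 each). Col1a1, the main collagen of the annulus and a substrate of Mmp13, went from 3282 to 5835 TPM (log2 fold change 0.83, limma adjusted p = 1.3e-07) and was picked with its values in view. Set against the median of 0.14 over all tested genes, the substrates had the highest median of these lists, and no test of the lists was made.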

How the data were processed

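The deposited table holds TPM for 31699 rows in 8 samples, made by the authors and given with 2 decimals, and the mean TPM of each group, which was not used. By the study's methods, low-quality, adapter and poly-N reads were discarded, HISAT2 mapped the remainder to the rat genome, StringTie rebuilt transcripts, and FPKM was the measure. How TPM were made, the versions of these tools, the strand setting and the annotation are not given in the sources used here. The authors' own test used the DESeq package, by the methods, while the submitters' processing notes name DESeq2 and mm10, a mouse build, although the identifiers are those of rat genes. TPM are not counts, so no count model was fitted, and the depth of each sample is unknown.

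Genes with a mean of at least 1 TPM (13103) were compared as log2(TPM + 1) with limma 3.58.1 in R 4.3.3 (moderation with a trend, Benjamini-Hochberg adjustment over all tested genes, all 8 samples, no block). For each member, an exact permutation test (two-sided) ran through all 70 ways to label the samples. The fit was tested on simulated data. The text names all members and Piezo1, every tested Mmp gene, up to 2 called rises and 2 called falls of each pathway list, and 3 genes close to the most changed member in profile. Other genes of the pathway lists are marked as picked after their values were seen, except Furin, Reck and Egr1. Cell type markers, and genes that flank or overlap members, are also named outside this rule. A gene that this rule names is not reported here. The members and lists were chosen with earlier results of these data known. Promoters, gene order and overlaps come from RefSeq (GRCr8), not from the build of the table. The alternatives were another pseudocount, other filters, scalings and moderation, a replicate block and leaving out each sample. Samples of the same number were not shown to be paired: the correlations of their deviations from the group means ran from -0.058 to -0.012. The main fit thus leaves out any matching of the groups by isolation.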

Additional observations from a re-analysis of the deposited data

How the results depend on the processing

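Of the log2 fold changes recomputed under the alternatives, 274 kept their direction and their side of the threshold, 1 lost significance, 6 gained it and 4 changed sign without passing the test on either side. These were Mmp24 (0.11 as deposited), at -0.060 with median-ratio scaling and -0.016 with quantile normalization, and Mmp28 (0.06 as deposited), at -0.093 and -0.13. Timp1 was the one lost, and Mmp14 was among those gained, both with median-ratio scaling as given above. Mmp24 passed without Lv-Piezo1 replicate 1 (log2 fold change 0.14, limma adjusted p = 0.032). A block by replicate number was also fitted, though it is not known whether the numbers mark shared isolations. With it, the members stayed at 4 lower and 3 higher, and no call of a member changed. Mmp9 had a log2 fold change of 2.21 (limma adjusted p = 9.0e-06), and 6971 instead of 7626 genes passed. The called genes numbered 628 with a minimum mean of 5 TPM, against 1005. Among the lists, the number called higher was 1 instead of 0 for the other Mmp genes (Mmp25) and for the inducers with a pseudocount of 0.1, 1 instead of 2 for the activation genes with a minimum of 5 TPM and with quantile normalization, and 2 instead of 1 for the substrates without a filter. For the inducers it was 0 to 1 when each sample was left out, and 1 without Lv-Ctrl replicate 2. With median-ratio scaling the mean MMP sum was 3456 in Lv-Ctrl and 1564 in Lv-Piezo1, and the TIMP sum 434.2 and 489.6. Apart from filters and scaling acting by their construction, the cause was not tested. TPM carry no depth, so the counting error of low genes such as Timp4 and Mmp25 is unknown.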
